A study of Mus musculus with 2 samples.

Results

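Macrophages that carried C1q transcripts but few or no Lyve1, Folr2 and Cd163 transcripts were described in single-cell RNA-Seq of hindlimb muscle from old mice. These cells were selected on raw unique molecular identifier (UMI) counts, where 1 UMI stands for 1 captured transcript. A member had at least 5 UMIs of C1qa, C1qb and C1qc together, at most 1 UMI of Pecam1, Cdh5, Pdgfra and Cd79a together, and fewer than 3 UMIs of Lyve1, Folr2 and Cd163 together. The gate held 460 of the 14984 cells kept in both libraries, which is 268 of 7467 in the ATRA+agonist library and 192 of 7517 in the DMSO vehicle library. The 248 cells with the same C1q and exclusion limits but 3 or more Lyve1, Folr2 and Cd163 UMIs, 125 and 123 per library, are called Lyve1 and Folr2 macrophages and served as the nearest comparison.

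Both libraries came from female C57 Bl/6J mice aged 24 months. Treated mice received all-trans retinoic acid (ATRA) together with CD3254, an agonist of the retinoid X receptor RXRα, and BMS961, an agonist of the retinoic acid receptor RARγ. Controls received the DMSO vehicle, and in both groups the tibialis anterior, gastrocnemius and quadriceps were injected 3 times over a week. Live cells were sorted from quadriceps and gastrocnemius pooled from 2 mice, and each group is 1 library. There is therefore no replicate check, no test was run between the libraries, and every interval below is a 95% interval that covers counting error only. The intervals are exact, except that those of share ratios come from a normal approximation on the log scale. Fewer cells of a kind and less RNA per cell cannot be told apart by sums over a library, and mouse, injection and library cannot be told apart from treatment.

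Resident macrophages of muscle clear debris and dying cells, present antigen and exchange signals with stromal cells and muscle stem cells. C1qa, C1qb and C1qc encode the chains of C1q, the recognition part of the classical complement pathway, and mark tissue macrophages. Lyve1, Folr2 and Cd163 mark a population that lies close to vessels and renews itself largely in place, while macrophages low in these genes often carry more MHC class II, the molecules that present antigen to CD4+ T cells, and include progeny of blood monocytes. Retinoic acid acts through RAR and RXR, and RXR is also the partner of the lipid sensors LXR and PPAR.

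The type I interferon-stimulated genes are followed gene by gene and cell by cell in these macrophages, so the upstream sequence of 4 of them is shown first. A search for the letters GAAA, any 2 bases and GAAA again, on either strand (TTTC, any 2 bases and TTTC when read on the other), the core of the element that interferon regulatory factors bind, found a match in the 250 bases before the start of 10 of the 15 listed genes with a RefSeq promoter entry (66.7%), against 978 of 32851 (2.98%) of all entries. A match is a description of letters and not a bound site. All 4 genes printed here have a match. Of the 2 listed genes called between the libraries below, Xaf1 has 0 matches and Ifi27l2a has no promoter entry. Irf7 also has 0 matches and Usp18 no entry. Whether a match went with the ratio of a gene was not tested. The 200 bases before the start of Ifit3, Rsad2, Isg15 and Slfn5 (RefSeq, build GRCm38.p6, strand of the gene, 5′ to 3′) read as follows, with every match, or run of overlapping matches, in capitals. Ifit3 lies on the plus strand at chr19:34583329-34583528, Rsad2 on the minus strand at chr12:26456453-26456652, Isg15 on the minus strand at chr4:156200819-156201018 and Slfn5 on the plus strand at chr11:82951902-82952101.
Ifit3: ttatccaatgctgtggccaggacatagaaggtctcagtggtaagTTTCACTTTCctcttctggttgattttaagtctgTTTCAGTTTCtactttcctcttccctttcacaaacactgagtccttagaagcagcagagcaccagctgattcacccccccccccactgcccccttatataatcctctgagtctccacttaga
Rsad2: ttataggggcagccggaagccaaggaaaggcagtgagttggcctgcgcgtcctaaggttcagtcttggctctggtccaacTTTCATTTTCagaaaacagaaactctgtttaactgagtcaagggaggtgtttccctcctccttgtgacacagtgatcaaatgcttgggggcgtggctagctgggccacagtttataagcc
Isg15: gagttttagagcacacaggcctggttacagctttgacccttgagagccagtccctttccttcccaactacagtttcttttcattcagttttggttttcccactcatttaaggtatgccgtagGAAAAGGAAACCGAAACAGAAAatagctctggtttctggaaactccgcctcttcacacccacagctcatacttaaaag
Slfn5: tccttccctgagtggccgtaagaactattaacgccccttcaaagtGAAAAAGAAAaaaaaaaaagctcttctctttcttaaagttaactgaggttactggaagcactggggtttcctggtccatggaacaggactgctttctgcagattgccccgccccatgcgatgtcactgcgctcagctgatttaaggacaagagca

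The gate gave cells of good depth in both libraries. Members held a median of 10136 UMIs (594 to 26081) in the ATRA+agonist library and 8572.5 (630 to 24766) in the vehicle library, from 2914.5 and 2646.5 genes, against a median of 4887 and 4959 UMIs over all kept cells. Mitochondrial transcripts took a median of 2.49% and 2.28% of UMIs. The summed counts of the members were 2695667 and 1732779 UMIs. Of 43 cell barcodes found in both libraries, 12 passed the filters and 0 were members. A doublet score marked 1 member in each library.

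The Lyve1, Folr2 and Cd163 limit of the gate cut through a continuum, while few cells lay near the C1q limit. Just below the C1q limit, at a sum of 4, lay 9 and 7 cells, and 8 and 6 members had a sum of exactly 5. Along the Lyve1, Folr2 and Cd163 sum, 208, 33 and 27 members of the ATRA+agonist library and 130, 41 and 21 of the vehicle library had 0, 1 and 2 UMIs, and 13 and 21 cells just outside had 3. Beside 27 and 18 members with 1 UMI of Pecam1, Cdh5, Pdgfra and Cd79a, another 9 and 10 cells had 2 and were left out. The median C1q sum was 52 and 54.5 UMIs in the members and 84 and 80 in the Lyve1 and Folr2 macrophages.

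Members lacked depth more often than their neighbours. Under 2000 UMIs lay 30 members (11.2%) and 18 members (9.38%), against 6 and 3 Lyve1 and Folr2 macrophages. These shallow members had higher levels of transcripts of the Lyve1 and Folr2 population than the deeper members: Pf4, the chemokine platelet factor 4, was at 3833 against 607 CPM (UMIs of the gene per 1000000 UMIs summed over the same cells) in the ATRA+agonist library and at 2537 against 849 CPM in the vehicle library. H2-Ab1, an MHC class II chain, went the other way, at 3333 against 5618 CPM and 1664 against 5218 CPM. All counts of called genes were also computed without them and stayed within 1.5 times.

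The macrophage label held against its markers. After each cell was thinned to 2000 UMIs, 235 of 238 and 174 of 174 members had 3 or more UMIs of 12 macrophage markers (98.7% in the first, treated library), against 2.98% and 3.45% of endothelial cells of the same libraries (median 3598.5 and 3793 UMIs before thinning). Csf1r, the receptor of the macrophage growth factor CSF1, was found in 60.5% and 62.6% of thinned members, and in 1.1% and 1.6% of endothelial cells. The 4 MHC class II markers together reached 3 UMIs in 94.1% and 96.6% of members and in 70.6% and 87.5% of Lyve1 and Folr2 macrophages. Ccr2, the receptor that lets monocytes leave the marrow, was found in 73.9% and 65.5% of members, in 39.5% and 35.8% of Lyve1 and Folr2 macrophages and in 0.7% and 1.0% of endothelial cells.

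Markers of most other cell types were low in the members, in part because the gate itself allows at most 1 UMI of Pecam1, Cdh5, Pdgfra and Cd79a together. Sums over B cell, mast cell, endothelial, fibro-adipogenic, muscle fiber, smooth muscle and tenocyte markers reached 3 UMIs in no more than 1.15% of thinned members in either library. Neutrophil markers did so in none, although Csf3r, which monocytes share with neutrophils, had 172 and 90 UMIs. The 6 dendritic cell markers together did so in 0.42% and 0.57%. Among them Cd209a had 62 and 29 UMIs in 16 and 7 members, Zbtb46 12 and 23, Flt3 6 and 10, and Xcr1 1 and 0. Cd3e of T cells stood at 3 and 1 UMIs. Igkc, an antibody light chain of B and plasma cells, had 54 and 0 UMIs, 38 of them in 1 cell, a log2 ratio of treated over vehicle of at least 3.53 when 3 counts are allowed. Dcn, of fibro-adipogenic cells, had 28 and 49 UMIs, 22 of the 49 in 1 cell (-1.44, or -1.15 without the top cells). Hemoglobin transcripts came to 280 CPM in the members of the ATRA+agonist library and 817 CPM in those of the vehicle library, with the same order in endothelial cells (451 and 1251 CPM).

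Lyve1-low members made up a larger share of the kept cells of the treated library. They were 3.59% (3.18 to 4.04) of kept cells in the ATRA+agonist library and 2.55% (2.21 to 2.94) in the vehicle library, a ratio of 1.41 (1.17 to 1.69). Lyve1 and Folr2 macrophages took 1.67% (1.40 to 1.99) and 1.64% (1.36 to 1.95), a ratio of 1.02 (0.80 to 1.31). Of both macrophage gates together the members were 68.2% and 61.0%, a ratio of 1.12 (1.001 to 1.25). The direction depended on the denominator, since over kept cells with Ptprc UMIs, the transcript of the leukocyte protein CD45, the ratio was 0.80. The hemoglobin limit removed 7 of 282 barcodes (2.48%) that met the gate in the ATRA+agonist library and 34 of 228 (14.9%) in the vehicle library, and without that limit the ratio was 1.45.

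Transcripts that define the Lyve1 and Folr2 population were higher in cells with 6 or more Lyve1, Folr2 and Cd163 UMIs than in members with 0, and took values in between at the steps around the limit of 3 UMIs. Cbr2, a carbonyl reductase of resident macrophages, stood at 23.7 CPM in members with 0 Lyve1, Folr2 and Cd163 UMIs and at 428 CPM in cells with 6 or more in the ATRA+agonist library, and at 20.7 and 381 CPM in the vehicle library. F13a1, the A chain of coagulation factor XIII, went from 350 to 2235 CPM and from 389 to 2397 CPM. Pf4 went from 460 to 3459 CPM and from 695 to 3238 CPM, and was level between 2 UMIs (1863 CPM) and 3 to 5 UMIs (1809 CPM) in the ATRA+agonist library. Mrc1 had no even course, at 1567, 982 and 1684 CPM with 1, 2 and 3 to 5 UMIs in that library. These are levels along a count that also sorted the cells, so they are given as a description.

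A second group of transcripts ran the other way. H2-Ab1 went from 5837 to 2214 CPM in the ATRA+agonist library and from 5383 to 2444 CPM in the vehicle library between the first and the last step. Cd52, a small surface glycoprotein of leukocytes, went from 1414 to 328 CPM and from 1388 to 250 CPM. Il1b, the inflammatory cytokine interleukin-1β, went from 942 to 57.9 CPM and from 751 to 158 CPM. In the vehicle library H2-Ab1 stood at 5199 CPM with 3 to 5 UMIs, still near the members, and dropped only with 6 or more.

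**Figure D1:**
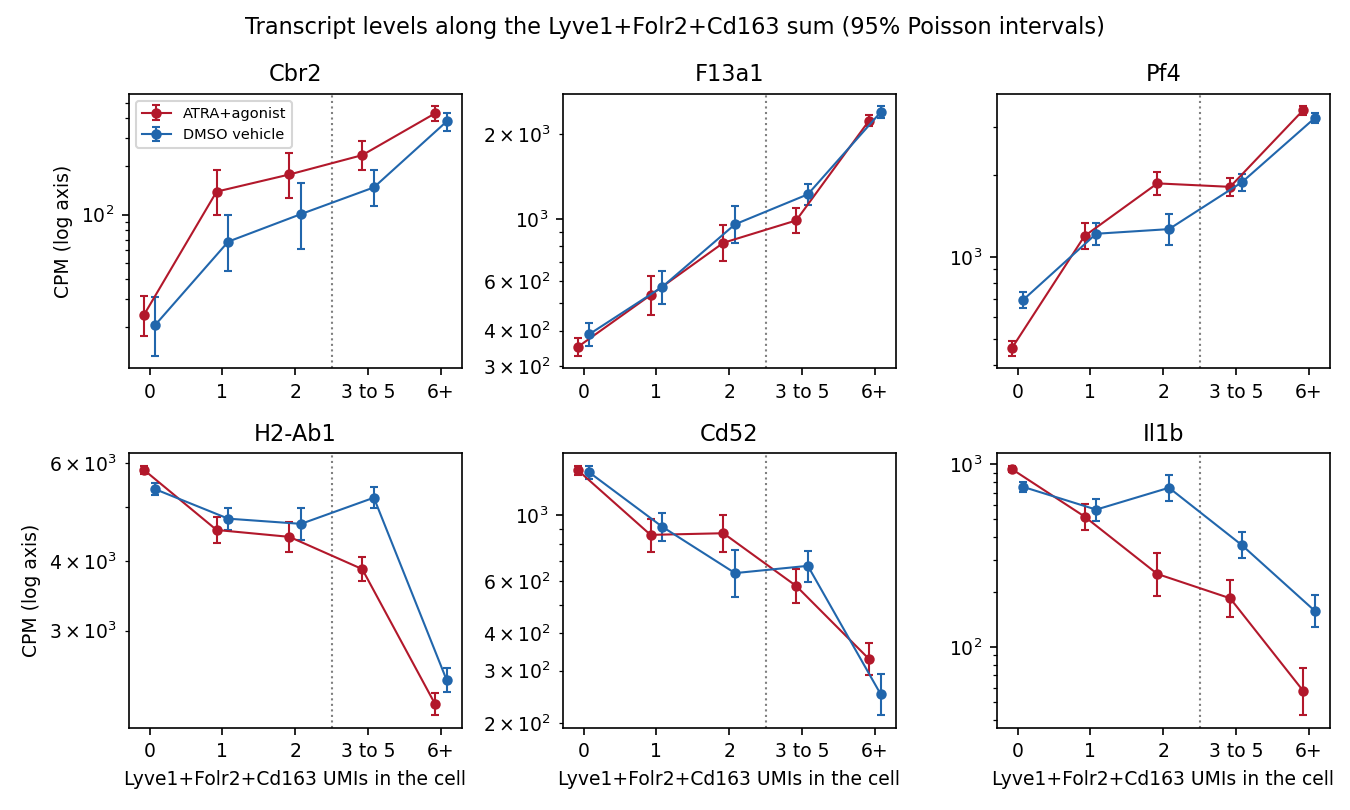
Level of 6 transcripts in CPM (log axis) against the number of Lyve1, Folr2 and Cd163 UMIs in the cell, in the ATRA+agonist library (red) and the DMSO vehicle library (blue). Points are sums over the cells of a step, bars are 95% Poisson intervals and the dotted line is the upper limit of the gate. Cbr2, F13a1 and Pf4 end higher than they began in both libraries, and H2-Ab1, Cd52 and Il1b end lower than they began.

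Members were set against the Lyve1 and Folr2 macrophages of the same library. Among the 5945 genes with 50 or more summed UMIs in each library, 157 (2.64%) were at least 2-fold lower in the members of both libraries with the counting intervals below 0, and 90 (1.51%) were at least 2-fold higher in both. With the gate set on counts thinned to 2000 UMIs per cell the order turned, with 132 lower and 180 higher. The genes of the gates were left out. Both populations were cut from the same cells by a threshold on 3 transcripts, so these values describe what went along with that threshold and the median over all genes was -0.07 and -0.01 on the log2 scale.

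The Lyve1 macrophage program was lower in the members, with 15 of 20 measured genes called lower in both libraries and a median log2 ratio of -1.92 and -1.89. Cd209f, a lectin, was at 4.45 against 108 CPM in the ATRA+agonist library and at 2.31 against 62.0 CPM in the vehicle library, log2 ratios of -4.60 (-5.59 to -3.75) and -4.75 (-6.67 to -3.32). Fcna, which encodes ficolin A, a starter of the lectin pathway of complement, had log2 ratios of -3.50 and -3.58. Gas6, the bridge between dying cells and the receptors Mertk and Axl, was at 49.3 against 390 CPM and 87.1 against 368 CPM. Mrc1, the mannose receptor, which is often used as a marker of this population, was present in most members and was at 1312 against 2408 CPM and 1337 against 2418 CPM, short of 2-fold.

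Some complement genes beyond C1q were lower too. Vsig4, a receptor for complement C3 fragments, had 0 UMIs in the members of the ATRA+agonist library against 48.5 CPM in Lyve1 and Folr2 macrophages, a log2 ratio of at most -5.45 when 3 counts are allowed, and in the vehicle library it was at 1.15 against 76.6 CPM, a log2 ratio of -6.05 (-9.12 to -4.15). C4b, a component of the classical and lectin pathways, had log2 ratios of -3.36 and -3.06. Of the 9 measured complement genes 3 were called lower, Vsig4 and C4b among them, and 0 higher. Fcgrt, the neonatal Fc receptor that recycles IgG and albumin, was lower by a log2 ratio of -1.5003 and -1.94, the single Fc receptor gene called.

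Genes of iron handling, growth factors and chemokines were called too. The ferroxidase ceruloplasmin gene Cp had log2 ratios of -3.01 and -2.92 and the transferrin receptor gene Tfrc of -2.25 and -1.90, the 2 called of 12 measured iron and heme genes. Igf1, a growth factor for muscle, was at 140 against 324 CPM and 99.8 against 245 CPM, whereas Osm and Fn1 of the same list of 13 growth and repair factors were called higher and its medians were 0.54 and 0.50. Of 14 measured chemokine genes 5 were called lower, namely Pf4, Ccl24, Ccl8, Ccl12 and Ccl7. The eosinophil attractant Ccl24 had log2 ratios of -2.86 and -2.62, and the monocyte attractant Ccl7 had -1.02 and -1.02. With the gate set on counts thinned to 2000 UMIs per cell, Ccl7 (0.46) and Ccl12 (0.69) were higher in the members of the ATRA+agonist library.

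Monocyte genes were among those higher in the members. Of 12 measured genes of monocytes and their recent progeny, 7 were called higher and 0 lower, with median log2 ratios of 1.41 and 1.51. Vcan, a proteoglycan of monocytes, was at 26.0 against 1.67 CPM and at 32.3 against 0.969 CPM, log2 ratios of 3.96 (2.05 to 7.03) and 5.06 (2.52 to 10.4) that rest on very few UMIs in the comparison cells. Most members had no Vcan UMI either. It was found in 6.0% and 5.2% of members and in 1.6% and 0.8% of Lyve1 and Folr2 macrophages. Napsa, an aspartic protease, had log2 ratios of 2.33 (1.70 to 3.03) and 2.42 (1.70 to 3.24). Plac8 had 1.80 and 2.91, and Cd52 had 1.67 and 1.52. Fn1, which encodes fibronectin, had 1.24 and 2.84.

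Ly6c2, which marks classical monocytes, was not among the 7, and its ratio differed widely between the libraries (0.59, 0.04 to 1.17, and 7.22, 4.73 to 12.5), with 36 UMIs and 1 UMI in the Lyve1 and Folr2 macrophages. Ccr2 was higher but short of 2-fold in the ATRA+agonist library (0.58, 0.46 to 0.69) and in the vehicle library (0.90, 0.74 to 1.06). Itgax, which encodes the integrin CD11c, had log2 ratios of 5.77 (3.26 to 11.1) and 1.49 (0.68 to 2.41), the first against 0.837 CPM.

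Inflammatory and antigen-presenting genes were higher too, in smaller numbers. Il1b was at 842 against 100 CPM and 709 against 239 CPM, Ptgs2, the inducible cyclooxygenase, at 84.2 against 13.4 CPM and 57.1 against 10.7 CPM, and Osm, an interleukin-6 family cytokine, at 51.6 against 21.8 CPM and 47.3 against 16.5 CPM, which makes 3 of 18 inflammatory genes called. The 7 measured MHC class II genes had median log2 ratios of 0.91 and 0.47 and only H2-DMb1, a chain of the peptide editor, passed 2-fold in both libraries (1.02 and 1.08). Cd9 (1.65 and 1.30) was the single lipid-associated gene called among 15, and Abcg1, the LXR-driven cholesterol exporter, had 1.45 and 1.34, the 1 called of 6 measured LXR targets, whose medians were -0.38 and -0.27. Tgm2, a transglutaminase that retinoic acid induces in many cells, was at 61.6 against 8.37 CPM and 53.1 against 17.5 CPM. It was the 1 called of 6 measured genes of the retinoic acid pathway, whose medians were 0.13 and 0.09.

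Among all genes ranked by the smaller ratio of both libraries, Fgf13 stood highest, with log2 ratios of 5.11 (3.23 to 8.17) and 5.402 (2.88 to 10.7) against 1.67 and 0.969 CPM, followed by Vcan. The list of genes enriched in these cells was led by Mefv, which encodes the inflammasome sensor pyrin (3.63 and 2.74), Klra2, a lectin-like receptor (2.49 and 3.88), and Cd72, a receptor of B cells and macrophages (2.85 and 2.36). At the other end stood Vsig4, Cd209f and Plekhg5 (-4.87 and -4.01). Of 17 macrophage identity genes 0 were called in both libraries, with medians of 0.19 and 0.22, although Csf1r was at -0.67 and -0.74 and Mertk, the receptor for Gas6, at -1.23 and -0.72.

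**Figure D2:**
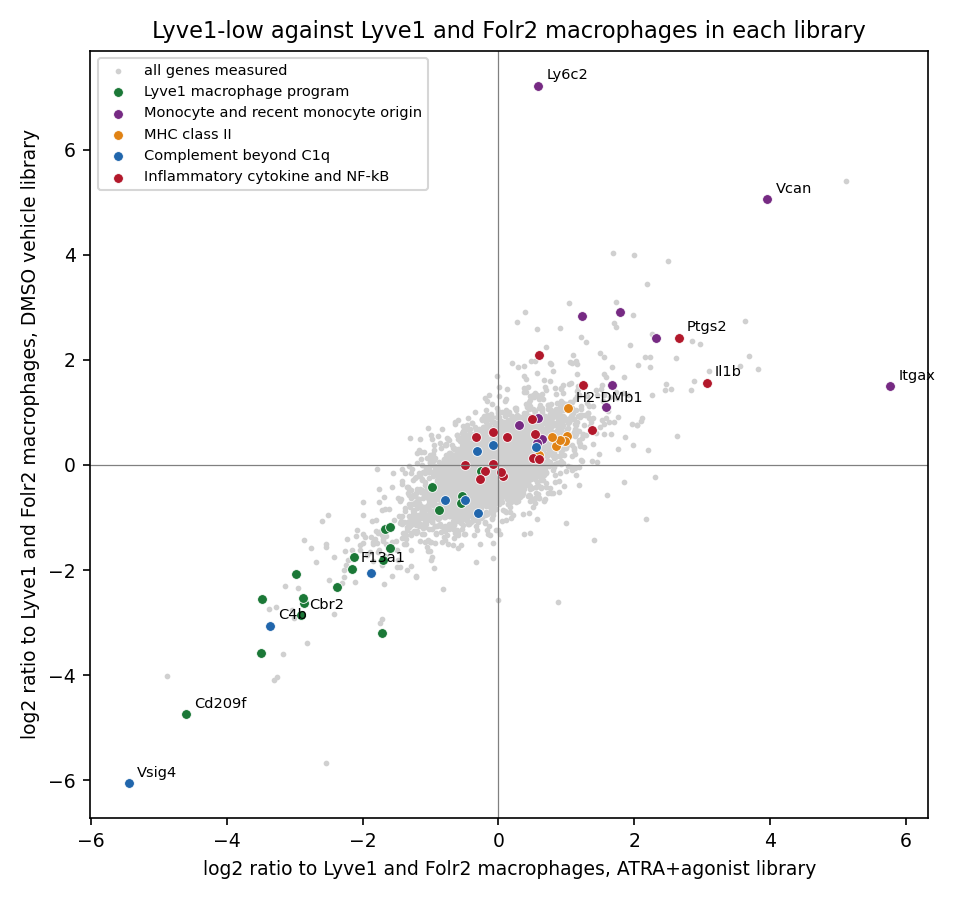
Log2 ratio of CPM between Lyve1-low C1q macrophages and Lyve1 and Folr2 macrophages, in the ATRA+agonist library (x) and the DMSO vehicle library (y), one point per gene, with 5 gene lists in colour. Genes of the Lyve1 program lie to the lower left and monocyte genes to the upper right, while Ly6c2 and Itgax are far out in one library and near 0 to 1.5 in the other.

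Between the libraries, members differed in few genes. Of 7227 genes with 50 or more UMIs over both libraries, 57 (0.789%) were at least 2-fold higher in the ATRA+agonist library with a counting interval above 0, and 67 (0.927%) were at least 2-fold lower. The median log2 ratio over all of them was 0.02. Ratios below are log2 of ATRA+agonist over vehicle. Such a call does not allow for differences between mice, which 1 library per group cannot show.

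Type I interferon-stimulated genes had the highest median of the lists other than cell markers, and several of them lay near 2-fold. Ifi27l2a, a small mitochondrial protein gene on chromosome 12 (103442167 to 103443680, minus strand, GRCm38), had 4667 UMIs in 255 of 268 members and 1499 UMIs in 157 of 192 members, 1731 against 865 CPM and a log2 ratio of 1.001 (0.92 to 1.09). Xaf1, a pro-apoptotic interferon target, had 126 and 40 UMIs, 46.7 against 23.1 CPM and 1.02 (0.49 to 1.57). These were the 2 called of 18 measured genes, and no single cell made the difference: without the top cell of each library the ratios were 1.01 and 0.99.

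Most of the other genes of the list leaned the same way without reaching 2-fold. Usp18, which removes ISG15 from proteins, had 0.97 (0.26 to 1.73), Ifit3 0.88 (0.43 to 1.36), Irf7, the transcription factor that amplifies interferon production, 0.86 (0.50 to 1.24), and Rsad2, which makes the antiviral viperin, 0.82 (0.37 to 1.29). The value of Rsad2 turned to -0.21, and that of Ifi211 from 0.24 to -0.18, when the gate was set on counts thinned to 2000 UMIs per cell. Bst2, the tetherin that holds virus at the cell surface, had 300 against 209 CPM (0.52, 0.34 to 0.71). In all, 11 of the 18 had an interval above 0 and 1 had an interval below 0, against 721 and 630 of the 7227 genes tested. The one below was Ifit2 (-0.68, -1.17 to -0.19), of which 30 of 74 vehicle UMIs came from 1 cell. Such one-sided counts were not particular to this list. Immediate early genes had 11 of 17 intervals above 0 and 0 below, and MHC class II genes 5 of 8 above and 0 below. Heat shock genes had 0 above and 7 of 10 below. Intervals are narrower for genes with more UMIs, so the share over all genes is not a matched baseline.

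The list median was 0.38 in the members, 0.03 in Lyve1 and Folr2 macrophages and -0.26 in all other kept cells. In the members it was 0.15 with the gate on thinned counts and 0.72 without cells bearing lymphocyte, mast cell or neutrophil markers. In the 15 and 9 members without MHC class II it was 2.85, but these cells held a median of only 1765 and 1614 UMIs. So few UMIs leave few listed genes measurable, so 2.85 may rest on very few genes and is not read as a value of the whole list. Ifi27l2a was higher in the Lyve1 and Folr2 macrophages too (0.56, 0.44 to 0.67) and in the other kept cells (0.54). Rsad2 went the other way in Lyve1 and Folr2 macrophages (-0.88, -1.32 to -0.44), where it had 72 and 114 UMIs, and Ifi211 did as well (-0.72, -0.99 to -0.45). Isg15, with 3 overlapping motif matches in its upstream sequence, had 0.22 (-0.05 to 0.49) in the members, and Slfn5, with 1, had 0.35 (0.16 to 0.55).

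**Figure D3:**
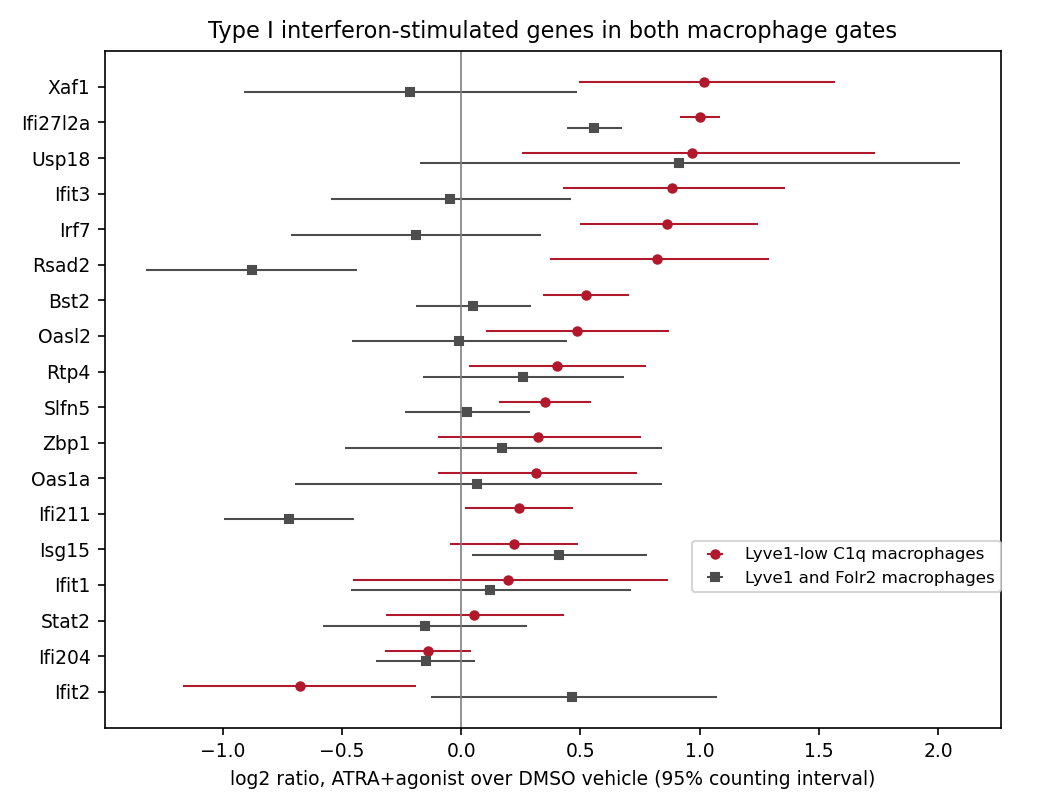
Log2 ratio of ATRA+agonist over DMSO vehicle for the 18 measured type I interferon-stimulated genes, in Lyve1-low C1q macrophages (red circles) and in Lyve1 and Folr2 macrophages (grey squares), with 95% counting intervals. The red points lie to the right of 0 for 16 of 18 genes, and the grey points scatter on both sides, with Rsad2 and Ifi211 on the left.

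Cell by cell, the interferon signal had a broad part and a narrow part. With every cell thinned to 2000 UMIs, Ifi27l2a was found in 82.4% of 238 members of the ATRA+agonist library (median 2 UMIs) and in 63.8% of 174 of the vehicle library (median 1). The rest of the list together reached 10 UMIs in 24 of 238 members (10.1%) and in 6 of 174 (3.45%), while its median was 2 in both. Among Lyve1 and Folr2 macrophages, 7 of 119 and 8 of 120 cells reached 10. Cells at 10 UMIs or more were thus a minority in either library.

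Genes that interferon-γ induces did not follow, and their median was -0.33. Iigp1, an immunity-related GTPase, had 52 UMIs in 20 members and 133 UMIs in 30 members, 19.3 against 76.8 CPM and a log2 ratio of -1.99 (-2.48 to -1.52). It was also lower in Lyve1 and Folr2 macrophages (-1.02). Cxcl9, an attractant of activated T cells, was called higher (1.496) with 60 of its 79 UMIs in 1 cell and stood at 0.29 without the top cells. The other 12 genes were not called, among them Gbp2 (-0.27), and the medians were -0.33 in Lyve1 and Folr2 macrophages and -0.81 in all other kept cells.

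Antigen presentation was level between the libraries. The invariant chain gene Cd74, the second most abundant transcript of the members, was at 17267 and 15813 CPM (0.13), H2-Ab1 at 5588 and 5169 CPM (0.11), H2-Aa at 6713 and 6522 CPM (0.04) and the transactivator Ciita at 93.9 and 88.3 CPM (0.09). None of 8 measured MHC class II genes was called and the median was 0.07. In Lyve1 and Folr2 macrophages the median was -0.32 and in all other kept cells 0.89, so the direction differed between these cells, a difference that was not tested.

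Of the 21 listed genes of the retinoic acid pathway 8 were measured, and none was called higher in the treated members. Rarb, which encodes a retinoic acid receptor, had 31 and 25 UMIs, at 11.5 and 14.4 CPM, and was not called. Dhrs3, a retinal reductase that retinoic acid induces, was at 161 and 156 CPM (0.05, -0.18 to 0.27), Rara at 69.0 and 56.0 CPM (0.30, -0.06 to 0.67), Rarg, the target of BMS961, at 27.8 and 21.4 CPM (0.38, -0.20 to 0.99), Rxra, the target of CD3254, at 10.8 and 16.7 CPM (-0.64, -1.43 to 0.16) and Tgm2 at 61.6 and 53.1 CPM (0.21, -0.16 to 0.60). Aldh1a2, an enzyme that makes retinoic acid, was called lower with 23 and 30 UMIs (-1.02, -1.87 to -0.19), and its interval reached past 0 without the top cells (-0.72, -1.73 to 0.29). The degrading enzyme Cyp26a1, the binding proteins Crabp1 and Crabp2 and the retinol receptor Stra6 had 0 UMIs in the members.

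Targets of the RXR partners gave mixed values. Of 9 measured LXR targets 0 were called, with Abca1 at 348 and 338 CPM (0.04), Abcg1 at 0.30 (0.02 to 0.58), and Mylip, an LXR-induced ubiquitin ligase, at -0.81 (-1.10 to -0.52). Nr1h3, which encodes LXRα, had 0.95 (0.05 to 1.93) with 42 and 14 UMIs, and -0.023 with every cell weighted equally. Of 8 PPAR targets 1 was called, Fabp4, a fatty acid carrier, at 38.2 and 110 CPM (-1.52, -1.88 to -1.17). Pparg had 0.55 (0.22 to 0.88) and Cd36, a scavenger receptor, 0.11.

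Of 13 measured monocyte genes 3 were called, all lower, and a few vehicle cells carried most of their vehicle UMIs. The list median was 0.06. Intervals lay above 0 for 5 of the 13 and below 0 for 4, and the highest ratio was that of Ms4a4c (0.64). Ly6c2 had 122 UMIs in 27 members and 250 UMIs in 19 members (-1.67, -1.997 to -1.35), and 220 of the 250 came from 5 cells. Plac8 had 329 and 569 UMIs (-1.43) with 411 of the 569 in 5 cells, and Chil3, a chitinase-like protein, had 45 and 98 UMIs (-1.76) with 76 of the 98 in 5 cells. The other 10 measured genes were not called, and Ccr2 stood at 962 and 751 CPM (0.36, 0.26 to 0.45), Fn1 at 875 and 873 CPM (0.00) and S100a4 at 1359 and 1240 CPM (0.13).

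Chemokine genes had a median of -0.17. Ccl12, a monocyte attractant, had 323 and 453 UMIs, 120 and 261 CPM and a log2 ratio of -1.13 (-1.34 to -0.92), and was lower in Lyve1 and Folr2 macrophages as well (-0.84). Ccl5 was called lower with 12 and 51 UMIs (-2.73) but stood at 0.91 when the gate was set on thinned counts. Ccl4 (-0.64) and Ccl6 (-0.46) were below 0 and not called. Ccl8 had 0.99 (0.62 to 1.37), but 175 of its 247 UMIs came from 1 cell and the ratio was -0.08 without the top cells.

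Inflammatory genes were level, with 0 of 19 called and a median of 0.08. Il1b was at 842 and 709 CPM (0.25, 0.15 to 0.35), Tnf at 199 and 226 CPM (-0.18) and Ptgs2 at 84.2 and 57.1 CPM (0.56, 0.21 to 0.92). In Lyve1 and Folr2 macrophages Il1b went the other way (-1.25, -1.58 to -0.93). Of 15 lipid-associated genes only Fabp4 was called, and Spp1, which encodes osteopontin, had 0.74 with 179 of 406 UMIs in 1 cell and 0.09 without the top cells.

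Hmox1, the enzyme that degrades heme, was among the genes with the firmest counts. It had 441 and 596 UMIs in 130 and 129 members, 164 against 344 CPM and a log2 ratio of -1.07 (-1.25 to -0.89). It was lower by about as much in Lyve1 and Folr2 macrophages (-0.80) and in all other kept cells (-1.07), and hemoglobin transcripts moved with it (Hba-a1 at 51.9 and 168 CPM, -1.70). Whether the blood in the libraries had a part in the Hmox1 level was not tested. Of the other 10 measured genes of iron and heme handling none was called, with Fth1, ferritin heavy chain, at -0.04 and Tfrc at -0.73.

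Stress-related lists differed in direction. The metallothionein list had a median of -0.67, with Mt2 at -0.88 and Mt1 at 676 and 934 CPM (-0.47). Heat shock genes had a median of -0.26, with Hspa1b at -0.93 and Hspa1a at -0.85, and immediate early genes, which dissociation can induce, a median of 0.15, with Fos at 0.43 and Dusp1 at 0.50. No gene of these 3 lists was called. Fkbp5, which glucocorticoids induce, was called lower in the members (54 and 105 UMIs, -1.60, -2.10 to -1.11) and had ratios of -2.08 in Lyve1 and Folr2 macrophages and -1.06 in all other kept cells, whereas Tsc22d3, another target, had -0.67.

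**Figure D4:**
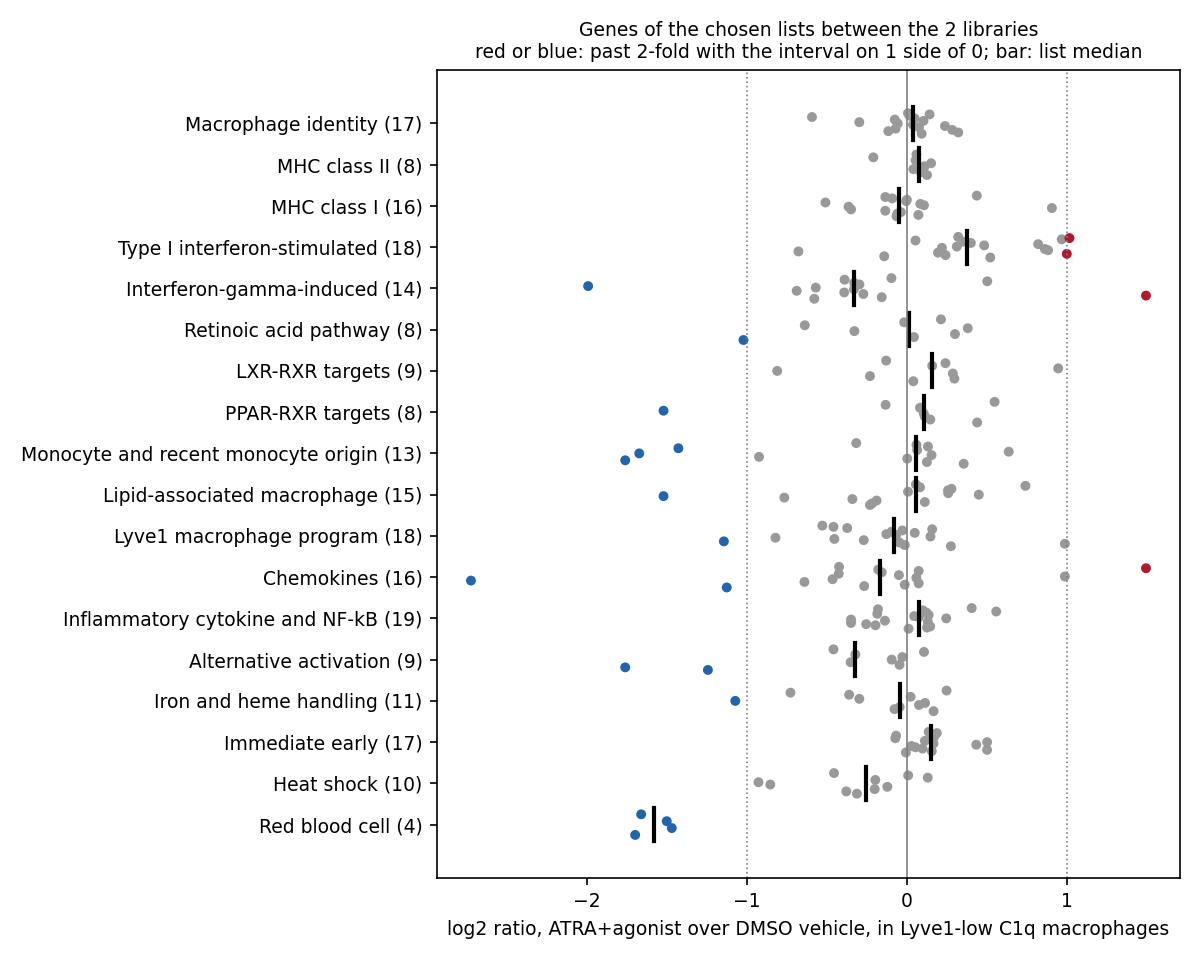
Log2 ratio of ATRA+agonist over DMSO vehicle in Lyve1-low C1q macrophages for the measured genes of 18 lists, one point per gene, with the number of measured genes in parentheses and the list median as a black bar. Red and blue points are at least 2-fold higher or lower with the counting interval on one side of 0. The medians lie between -0.33 and 0.38 except for the red blood cell list, which is at -1.58.

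Among genes enriched in these cells, the largest ratio was that of Nrg1, which encodes the growth factor neuregulin 1. It had 347 and 47 UMIs (2.25, 1.80 to 2.72) in only 18 and 13 members, and 274 of the 347 came from 5 cells. Spread over more cells were Dgkg, a diacylglycerol kinase (107 and 28 UMIs in 49 and 18 members, 1.30, 0.69 to 1.95), Hpgd, which inactivates prostaglandins (266 and 81 UMIs in 87 and 41 members, 1.08, 0.71 to 1.46), and Ifi206, an interferon-induced gene (101 and 31 UMIs, 1.07, 0.47 to 1.70). Hpgd had 0.27 (-0.02 to 0.57) in Lyve1 and Folr2 macrophages. Olr1, a receptor for oxidised lipoprotein, had 1.05 with 59 of 87 UMIs in 5 cells.

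At the lower end of the same ranking stood Mmp19, a matrix metalloproteinase, with 221 and 324 UMIs (-1.19, -1.44 to -0.94), Lyz1, a lysozyme (529 and 767 UMIs, -1.17, -1.34 to -1.01), Fnip2, a partner of folliculin (582 and 780 UMIs in 144 and 125 members, -1.06, -1.22 to -0.90), Ralgds (96 and 132 UMIs in 72 and 73 members, -1.10) and F10, coagulation factor X (-1.05). Mmp19 differed in sign from Lyve1 and Folr2 macrophages (0.51, 0.03 to 0.998). Lyz1 reads can be shared with its near-identical neighbour Lyz2, which was at 9715 and 10231 CPM (-0.07), so its level is uncertain. Muscle fiber transcripts were higher in the treated members, 3 of 5 called with Mylpf at 39.0 and 10.4 CPM (1.91), and also in all other kept cells (2.09), and their part in other results was not tested.

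Within the members a set of cells stood out by Retnla, a secreted protein of alternatively activated macrophages, which was chosen for this after its values were seen. Cells with 3 or more Retnla UMIs were 44 of 268 (16.4%) and 31 of 192 (16.1%), and they held 6425 of the 6432 and 3831 of the 3836 Retnla UMIs, so that nearly all other members had none. At equal depth 14.7% and 13.8% of members and 16.0% and 12.5% of Lyve1 and Folr2 macrophages reached 3 UMIs. Retnla itself was level between the libraries in the members (2386 and 2214 CPM, 0.11, or -0.16 with no maximum of genes) and stood at 1.02 (0.93 to 1.11) in Lyve1 and Folr2 macrophages.

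The Retnla cells carried further genes of their own. Of 4577 genes with enough UMIs in both libraries, 39 (0.852%) were at least 2-fold higher in them than in the other members of both libraries and 163 (3.56%) at least 2-fold lower. Lyz1 was at 719 against 58.1 CPM and 1580 against 123 CPM, log2 ratios of 3.63 and 3.69. Ear2, a ribonuclease, had 3.27 and 4.17, Fgfr1, a fibroblast growth factor receptor, 2.90 and 2.67, Fn1 2.19 and 2.98, and Cfp, the complement protein properdin, 1.51 and 1.61. F10 was higher as well (1.80 and 1.15). The Retnla cells were also deeper, with a median of 12920 against 9508.5 UMIs and 11568 against 7863 UMIs. The part of depth in these ratios was not tested.

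The same cells had lower levels of other macrophage and interferon genes. Ms4a7, a membrane protein of macrophages, was at 33.7 against 549 CPM and 7.89 against 556 CPM, log2 ratios of -4.02 (-4.76 to -3.37) and -6.14 (-8.42 to -4.59). Cd72 had -3.55 (-5.19 to -2.31) and -4.16 (-7.22 to -2.28), Ccl12 -2.78 and -3.14, and Ifit3 -3.32 (-5.21 to -1.93) and -2.87 (-5.95 to -0.95). MHC class II did not set them apart, with H2-Ab1 at 0.01 and 0.40, and Ccr2 had 0.38 and 0.88. Csf1r was lower by less than 2-fold (-0.55 and -0.96).

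Of the retinoic acid pathway, the receptor Rarb and the enzyme Aldh1a2 had most of their UMIs in Retnla cells within the treated library. Within the vehicle library most lay in the other members. In the treated library Rarb had 19 of its 31 UMIs in Retnla cells, a log2 ratio of 2.58 (1.47 to 3.76), and in the vehicle library 11 of 25 (1.48, 0.20 to 2.73). Aldh1a2 had 20 of 23 UMIs (4.66, 2.90 to 7.05) and 12 of 30 (1.24, 0.06 to 2.38). Tgm2 ran the other way, with -2.38 and -0.91. Lyve1 and Folr2 macrophages carried Rarb at 12.6 and 9.7 CPM and Aldh1a2 at 9.2 and 8.7 CPM. Counts of this size are few, and both genes were picked after their values were seen.

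**Figure D5:**
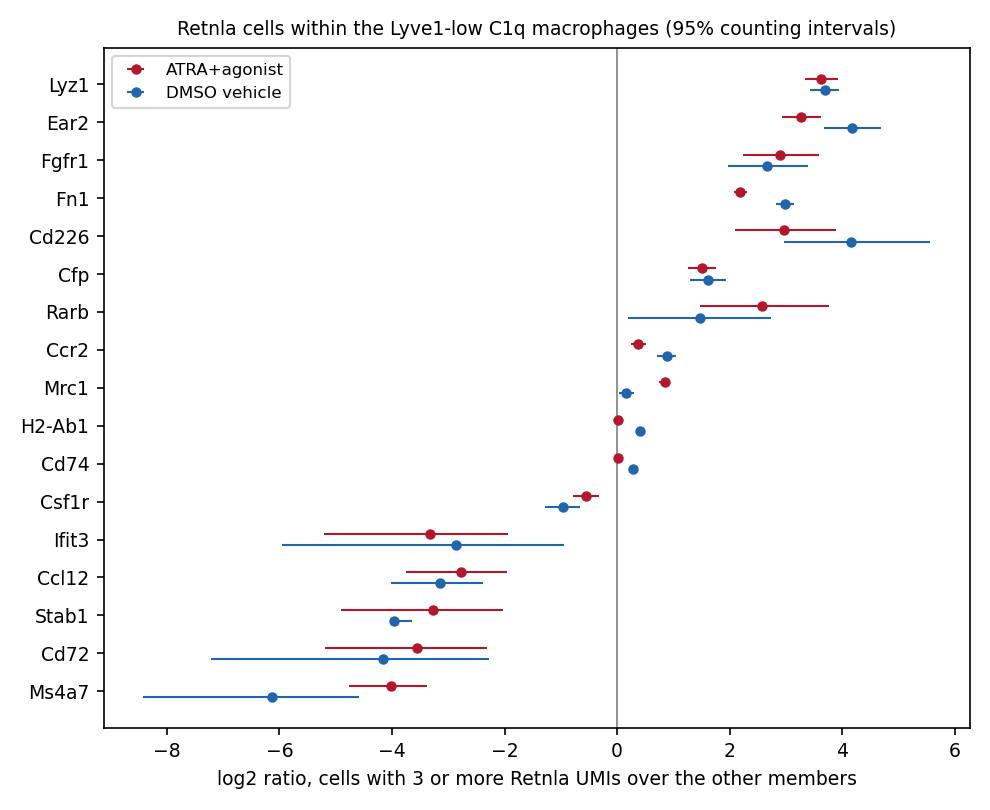
Log2 ratio of CPM between members with 3 or more Retnla UMIs and the other members, in the ATRA+agonist library (red) and the DMSO vehicle library (blue), for 17 genes, with 95% counting intervals. Lyz1, Ear2, Fgfr1 and Fn1 lie at 2 or more in both libraries, MHC class II genes lie near 0, Ccr2 lies between 0 and 1, and Ms4a7 lies lowest. Where a group had 0 UMIs the point is the bound that 3 counts give, and no lower interval is drawn.

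Clustering the 412 members of at least 2000 UMIs gave 6 clusters, whose leading genes are given as a description and whose sizes were not compared between libraries. Cluster 3 (80 cells) was led by Retnla (6996 CPM) and Fn1 (2406 CPM). Retnla was found in 58.8% of its cells and in 10.5% of the other clustered members. Cluster 3 also had the lowest C1q sum (3216 CPM) and the highest median depth (14754.5 UMIs). Cluster 5 (42 cells) was led by Ifit3, Rsad2, Ifit2 and Isg15, with Ifit3 at 336 CPM against 3.70 CPM in cluster 3. Cluster 6 (34 cells) was led by Nrg1, Ly6c2, Thbs1 and Plac8 and had the highest Il1b (2614 CPM) and Spp1 (472 CPM). Nrg1 and Ly6c2 were each found in only 26.5% of its cells and Spp1 in 32.4%, against 61.8% for Thbs1, 55.9% for Plac8 and 91.2% for Il1b.

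The larger clusters were less sharply marked. Cluster 1 (106 cells), led by Trim69, Ints6 and Wwp1, had the highest F13a1 (791 CPM) and Mrc1 (1942 CPM), cluster 2 (91 cells), led by Fabp5, Avpi1 and Itgax, had the highest Cd74 (22149 CPM) and Lgals3 (2693 CPM), and cluster 4 (59 cells) was led by Dst, Rcan1 and Ccl7 and had the highest C1q sum (10087 CPM). Cluster 6 held 3 monocyte markers among its 10 leading genes and the other 5 clusters 0. No cluster had more than 1 marker of another cell type list there, and none was given a cell type name.

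Il1b split the members in another way. Cells with 3 or more Il1b UMIs were 35.4% and 35.9% of the members, and at equal depth 20.6% and 17.8%, against 3.36% and 3.33% of Lyve1 and Folr2 macrophages. Beside Il1b they had more Thbs1, which encodes thrombospondin 1 (235 against 9.89 CPM and 147 against 15.1 CPM), Areg, the growth factor amphiregulin (log2 ratios of 3.21 and 2.19), Ptgs2 (2.77 and 1.88) and Vcan (2.00 and 3.04). They had less Cbr2 (-2.69 and -1.41), Gas6 (-1.75 and -1.35) and Egr1, an immediate early factor (-1.19 and -1.42). These genes were picked by size after the split had been seen, and Il1b is one of the genes that ran against the Lyve1, Folr2 and Cd163 sum. The Il1b cells were also deeper, with a median of 11891 against 8874 UMIs and 12289 against 7072 UMIs. Members under 2000 UMIs had more Cbr2 than deeper ones (417 against 43.2 CPM and 125 against 38.6 CPM) and more Gas6. The part of depth in these ratios was not tested.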

How the data were processed

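The authors deposited, per library, a 10x Genomics matrix of UMI counts per gene and barcode, made with Cell Ranger 7.2.0 per the file headers on mm10. The counts are not normalized. Barcodes were kept with 300 to 5000 detected genes, under 20% mitochondrial UMIs and under 0.25% Hbb- UMIs, which left 7467 of 10444 and 7517 of 17394. Counts of the 32285 genes were summed over the gated cells of a library and given as CPM (counts per 1000000 of that sum). Intervals are exact (Poisson for CPM, conditional binomial for ratios of CPM, Clopper-Pearson for shares, scipy 1.17.1) and cover counting error only. Those of ratios of shares are not exact and use a normal approximation on the log scale. A gene was called at 2-fold with the 95% interval on one side of 0, and measured at 50 or more summed UMIs; a sum of 0 was bounded by 3 counts. Comparisons of shares between depths used cells thinned to 2000 UMIs, which left out 30 and 18 members. No doublets were removed; a nearest-neighbour score (20% artificial doublets, top 7.5% marked) served as an alternative. Clusters came from scanpy 1.11.5 (2000 variable genes, 20 components, 15 neighbours, Leiden resolution 0.6). Gene positions came from GENCODE M21 (32235 identifiers matched) and promoters from RefSeq. The call was tried on simulated Poisson counts, the model that the intervals assume. These counts leave out the crowding of UMIs in single cells, so they cannot check the call for such genes. Mx1 of the interferon list was not analysed here.

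The members and the 38 gene lists were chosen with earlier results of these data known. Named genes were, per list, the 2 highest and 2 lowest ratios as examples, and per comparison the 10 largest rises and falls among genes with 100 or more UMIs and at least 2 times the CPM of all other kept cells, and the 5 largest among all genes. Further genes of the lists, and those of the Retnla and Il1b splits, were named after their values were seen. Some genes are not reported here.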

Additional observations from a re-analysis of the deposited data

Results flagged for a closer look

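Rsad2 and Spp1 moved in opposite directions in the members and in Lyve1 and Folr2 macrophages, with intervals on opposite sides of 0, and the difference was not tested. Rsad2, which makes the antiviral viperin, had a log2 ratio of ATRA+agonist over vehicle of 0.82 (0.37 to 1.29) in the Lyve1-low members and of -0.88 (-1.32 to -0.44) in Lyve1 and Folr2 macrophages. In the members 51 of its 154 UMIs came from 1 cell of the treated library and 22 of its 56 from 1 cell of the vehicle library, and its ratio was -0.21 with the gate on thinned counts. Spp1, which encodes osteopontin, had 0.74 (0.47 to 1.02) in the members and -2.45 (-2.98 to -1.95) in Lyve1 and Folr2 macrophages, where its 189 vehicle UMIs lay in 9 cells. In the members 179 of 406 UMIs came from 1 cell, and the ratio was 0.09 without the top cells, -0.34 without cells bearing lymphocyte, mast cell or neutrophil markers and -0.46 with every cell weighted equally, so the opposite directions did not hold under the last 2 of these settings.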

How the results depend on the processing

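Each group is 1 library, so the intervals hold no difference between mice. No paired analysis was possible because the groups share no replicate beyond 1 library each. Over 24 alternative settings, 150 of 179 values of the main comparisons were scored as unchanged, 28 as moved and 1 as reversed. Unchanged meant within 1.5 times for counts of genes and within the counting interval for the share ratio. For list medians it meant between the medians of the single genes' lower and upper limits, which are not an interval of the list median. For the type I list these were 0.07 and 0.76, so a median of 0.15 was scored as unchanged. The share ratio of 1.41 lay between 1.18 and 1.61 except over kept cells with Ptprc UMIs (0.80). The counts of genes called higher and lower, 57 and 67, were 116 and 125 with every cell weighted equally, 19 and 28 with every cell thinned to 2000 UMIs, 169 and 163 at 20 UMIs, 4 and 17 at 200 UMIs, and 258 and 220 at 1.5-fold. Against Lyve1 and Folr2 macrophages, 90 higher and 157 lower became 49 and 96 without cells bearing lymphocyte, mast cell or neutrophil markers, 37 and 60 with thinned cells, and 180 and 132 with the gate on thinned counts. The MHC class II median of 0.07 was 0.17 without the Hbb limit. The type I median of 0.38 lay between 0.15 and 0.72 except in the 15 and 9 members without MHC class II (2.85). Those cells were few and shallow, so 2.85 may rest on very few genes of the list. In the same cells the metallothionein median equalled the value of Mt1 alone (0.30). The Lyve1 program medians of -1.92 and -1.89 were -2.39 and -2.20 at 0 Lyve1, Folr2 and Cd163 UMIs, -1.47 and -1.54 with the gate on thinned counts, -1.65 and -1.59 with cells weighted equally, and -1.72 in the treated library at 0 UMIs of other types. The monocyte medians of 1.41 and 1.51 were 1.91 and 2.14 with the gate on thinned counts, and in the treated library 1.61 at a C1q sum of 10 and 0.96 with thinned cells. Among 2855 other values 23 changed sign, and the cause was not tested. Between libraries these were, with the gate on thinned counts, Ccl5 (0.91), Cxcl9 (-1.62), Ifi211 (-0.18), Rsad2 (-0.21) and H2-Aa (-0.040); without marker-bearing cells, Ifit2 (0.23), Spp1 (-0.34), Fth1 (0.063) and H2-Aa (-0.011); with cells weighted equally, Spp1 (-0.46), Lyz2 (0.016) and Nr1h3 (-0.023); at 0 Lyve1, Folr2 and Cd163 UMIs, Ccl8 (-2.56) and Fth1 (0.0099). Ccl8 was at -0.24 without the Hbb limit and -0.082 without the top cells, Ifit2 at 0.066 without the 5 highest interferon cells, Retnla at -0.16 with no maximum of genes and -0.0028 without high doublet scores, and Mt1 and the metallothionein median at 0.30 in members without MHC class II. Against Lyve1 and Folr2 macrophages, Ccl12 (0.69) and Ccl7 (0.46) changed sign in the treated library with the gate on thinned counts. Settings without top cells, without interferon cells and without members under 2000 UMIs were chosen after seeing the data.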

Other observations

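Gene groups not described above were mostly level between the libraries in the Lyve1-low members. Of 12 measured receptors and bridges of phagocytosis 0 were called (median -0.08). Gas6 was at 49.3 and 87.1 CPM (-0.82, -1.17 to -0.47), its receptor Mertk at 72.3 and 109 CPM (-0.59, -0.89 to -0.30), and Axl, a sister receptor, at 137 and 100 CPM (0.45, 0.18 to 0.72). Both Gas6 and Mertk had intervals below 0 while that of Axl lay above 0. None of 19 lysosomal hydrolases (median -0.08), 6 Fc receptors (-0.12), 16 MHC class I genes (-0.05) or 17 macrophage identity genes (0.04) was called.

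Growth and repair factors had 0 of 14 genes called and a median of 0.09, with Igf1, a growth factor for muscle fibers, at 140 and 99.8 CPM (0.49, 0.23 to 0.76) and Vegfa, which drives vessel growth, at 21.9 and 11.5 CPM (0.92, 0.17 to 1.73). Of the Vegfa UMIs in the vehicle library 10 of 20 came from 1 cell. Of 9 genes of alternative activation 2 were called lower, Chil3 (described above) and Ccl17, an attractant of T cells (8.53 and 20.2 CPM, -1.24, -2.07 to -0.44). Of the Ccl17 UMIs 18 of 23 and 32 of 35 came from 1 cell of each library, and the ratio without them was 0.10. Mrc1, the mannose receptor gene, stood at 1312 and 1337 CPM (-0.03). Of 6 measured proliferation genes 1 was called lower, the topoisomerase gene Top2a (5.94 and 21.4 CPM, -1.85, -2.79 to -0.97), whereas Mki67 had -0.48 (-0.97 to 0.02), Birc5 0.92 (0.10 to 1.81, with 24 of 50 treated UMIs in 1 cell) and Ube2c 0.44 (-0.42 to 1.37). Of 9 complement genes beyond C1q 1 was called, lower, C4b (11.5 and 30.01 CPM, -1.38). Of 18 genes of the Lyve1 program 1 was called lower, the endothelin receptor gene Ednrb (-1.14, -1.70 to -0.60), and the median was -0.08.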
